A study of Mus musculus with 4 samples.

Results

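The expression of 9 genes of the PARP family and its partner Dtx3l was compared between bone marrow macrophages treated with dimethyl itaconate and vehicle-treated macrophages. The genes were chosen by name from the 34745 genes in the deposited table, and all 9 were found once each. Parp8, Parp9, Parp10, Parp11, Parp12, Parp14 and Dtx3l make up the interferon-linked group of 7, and Parp1 and Parp2 are the DNA-repair pair set against them. No library of the series was treated with interferon, so the name of the larger group comes from background knowledge, not from these measurements.

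BMMs are macrophages grown from bone marrow, here from male wt C57BL/6 mice at 8 weeks of age, and RANKL is the cytokine that turns them into osteoclasts, the cells that resorb bone. The cells of all 4 samples were kept in α-MEM without serum for 12 h. They were then given RANKL at 100 ng/mL for 24 h, so the vehicle group was also stimulated with RANKL and there was no group without it. The 2 DI libraries received dimethyl itaconate (DI), a cell-permeable ester of the macrophage metabolite itaconate, and the 2 DMSO libraries received vehicle. The labels give the dose of DI as 20 mM, whereas the study's methods give the same figure in micromolar units. The other doses of DI that the study states for cultured cells are also micromolar. The dose is left as uncertain here, by a factor that the sequencing data themselves cannot settle. The labels do not say whether the 2 libraries of a group came from separate mice or cultures. The p-values therefore measure only the spread between these libraries, which may be technical.

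PARP proteins take ADP-ribose from NAD and attach it to other molecules. PARP1 and PARP2 bind broken DNA and build chains of poly(ADP-ribose) that recruit repair proteins. Most other members attach single ADP-ribose units or have lost the activity, and several of them are induced when interferon activates factors that bind interferon-stimulated response elements (ISRE) in promoters. In macrophages, PARP9 and PARP14 are known as regulators of the response to interferon, and in osteoclast precursors interferon-β made after RANKL restrains osteoclast formation.

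Each library held between 16085692 and 19403480 counts, and 12590 genes passed the filter on low counts and entered the quasi-likelihood test of edgeR. Levels are given as CPM, which are counts scaled to a common library size with TMM factors, and a gene is called changed at a Benjamini-Hochberg adjusted p under 0.05 over all tested genes. With DI, 7.70% of tested genes were called lower and 7.14% higher, 969 against 899 genes. This split moved to 1932 lower and 548 higher when libraries were scaled by their size only, a scaling that shifts the median over all tested genes from 0.00117 to -0.102 in log2 fold change. In 29.6% of tested genes, both DI libraries lay below both DMSO libraries. The cultures expressed macrophage markers, with a summed level over 6 markers of 26845 and 27749 CPM with DI and 21997 and 21194 CPM with DMSO. Most of this sum was Lyz2, singled out after its values were seen, at 22760 and 23770 CPM with DI and 18280 and 17620 CPM with DMSO. Of the 6 markers, 4 were called higher and 1 was called lower. Osteoclast markers summed to 729.9 and 713.8 CPM with DI and to 763.5 and 740.1 CPM with DMSO, with 5 of 8 tested markers lower, 2 higher, and Calcr at 0 counts in every library. Most of this sum was Atp6v0d2, a proton pump subunit singled out after its values were seen, at 508.6 and 509.0 CPM with DI and 426.7 and 417.4 CPM with DMSO. The 8 other osteoclast markers summed to 221.3 and 204.7 CPM with DI and to 336.8 and 322.6 CPM with DMSO. Summed markers of plasmacytoid dendritic cells, which are strong interferon producers, were at 0.233 and 0.266 CPM with DI and 0.429 and 0.600 CPM with DMSO, and 3 of the 5 had no count in any library. B cell markers lay between 0.116 and 0.600 CPM, T and NK cell markers between 0.240 and 0.699 CPM, neutrophil markers between 5.90 and 8.68 CPM and stromal markers between 41.5 and 51.3 CPM. The part of such shifts in cell makeup in the results on the PARP genes was not tested, and in bulk RNA fewer cells of a type and less RNA per cell cannot be told apart.

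All 9 genes passed the filter. With DI, 6 of the 7 interferon-linked genes were called lower, against the 7.70% of all tested genes called lower, and they stood at 64.5% to 78.4% of their DMSO levels. The exception was Parp11, at 93.5%. The 9 genes were listed with earlier results of these data known. Setting them beside all tested genes is therefore not independent evidence of their direction. Parp1 was also called lower, at 84.3%, and Parp2 was not called, at 89.6%. None of the 9 was called higher, with 0 at an unadjusted p under 0.05 in that direction and 0 by DESeq2. The median log2 fold change of the 7 interferon-linked genes was -0.51, the mean of the DNA-repair pair was -0.202, and the median of all tested genes was 0.00117. In every one of the 9 genes both DI libraries lay below both DMSO libraries, where 29.6% of tested genes did so. The count of 6 became 3 without DMSO replicate 2 and 4 without DI replicate 2, and was 5 by DESeq2.

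**Figure D1:**
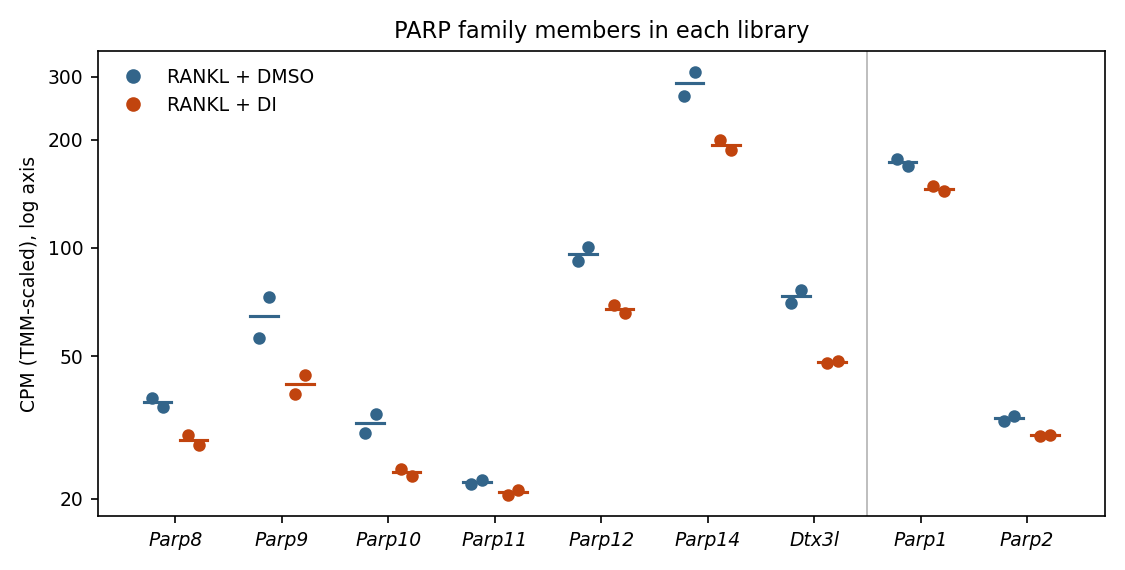
CPM of each of the 9 genes in each library on a log axis, with points for the 2 DMSO and the 2 DI libraries and a bar at each group's mean; the line separates the interferon-linked genes from the DNA-repair pair. The DI points lie below the DMSO points for every gene, from a narrow gap in Parp11 (20.5 and 21.2 against 22.0 and 22.6 CPM) to a wide one in Parp14 (199.9 and 187 against 265.9 and 309.6 CPM).

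The sequence around the start of the genes was examined for 3 short motifs on both strands. These were the ISRE core (GAAANNGAAA), the core of the interferon-γ activated site, GAS (TTCNNNGAA), and the core of the antioxidant response element bound by NRF2, a factor that itaconate derivatives are known to activate (TGACNNNGC). RefSeq promoter windows on GRCm38.p6, running from 250 bases before to 50 bases after a gene's start, were matched for 6 of the 9 genes, in 7 windows. Over all 32851 windows of that length the ISRE core was present in 3.44%, the GAS core in 8.3% and the antioxidant core in 12.4%. The windows of the following 4 genes are shown 5′ to 3′ in the direction of transcription, to set Dtx3l and Parp12, which were lower with DI, and Parp1 beside Parp11, the one interferon-linked gene that was not called. Capitals mark bases that match a motif, and lower case marks the rest.
Dtx3l, chr16:35938978-35939277, minus strand: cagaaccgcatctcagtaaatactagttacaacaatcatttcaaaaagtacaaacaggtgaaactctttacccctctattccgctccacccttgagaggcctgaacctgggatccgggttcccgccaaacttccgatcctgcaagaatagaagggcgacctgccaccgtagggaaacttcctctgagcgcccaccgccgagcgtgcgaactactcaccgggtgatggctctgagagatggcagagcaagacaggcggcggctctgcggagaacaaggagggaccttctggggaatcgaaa
Parp12, chr6:39118300-39118599, minus strand: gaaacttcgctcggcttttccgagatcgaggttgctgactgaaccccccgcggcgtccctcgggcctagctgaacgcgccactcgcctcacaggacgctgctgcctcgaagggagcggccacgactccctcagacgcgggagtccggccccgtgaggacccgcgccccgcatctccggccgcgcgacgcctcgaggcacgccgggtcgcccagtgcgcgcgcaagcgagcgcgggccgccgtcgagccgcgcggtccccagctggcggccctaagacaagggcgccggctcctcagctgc
Parp11, first start, chr6:127446590-127446889, plus strand: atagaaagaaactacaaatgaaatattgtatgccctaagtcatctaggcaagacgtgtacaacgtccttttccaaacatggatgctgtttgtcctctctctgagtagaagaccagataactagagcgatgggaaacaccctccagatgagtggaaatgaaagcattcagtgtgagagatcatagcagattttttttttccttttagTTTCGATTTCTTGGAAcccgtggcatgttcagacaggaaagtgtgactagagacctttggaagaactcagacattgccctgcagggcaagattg
Parp1, chr1:180568641-180568940, plus strand: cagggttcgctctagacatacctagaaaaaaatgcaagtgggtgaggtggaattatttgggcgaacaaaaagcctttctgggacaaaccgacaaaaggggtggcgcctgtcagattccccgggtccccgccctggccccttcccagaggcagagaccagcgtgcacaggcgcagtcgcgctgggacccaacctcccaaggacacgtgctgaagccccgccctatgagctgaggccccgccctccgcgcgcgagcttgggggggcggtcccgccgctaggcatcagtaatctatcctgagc
Only the first Parp11 window held a match. Counted from 1 at the 5′ end of the window, with the start of transcription after position 250, the reverse strand of the ISRE core lay at positions 207 to 216 (TTTCGATTTC) and a GAS core at positions 214 to 222 (TTCTTGGAA), so the matches share their bases 214 to 216. The windows of Parp8, Parp12, Dtx3l, Parp1, Parp2 and the second start of Parp11 held none of the 3 motifs, which says only that these letters are not in these windows.

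PARP14 is a large mono-ADP-ribosyltransferase with macrodomains, modules that bind ADP-ribose, and is known as a partner of STAT6 and a regulator of macrophage activation. Parp14 (ENSMUSG00000034422, chr16:35832874-35871544 on GRCm38) had the highest CPM of the 9 genes, a measure that is not scaled to gene length. Its level was 199.9 and 187 CPM in the DI libraries and 265.9 and 309.6 CPM in the DMSO libraries, with means of 193.5 ± 9.17 and 287.7 ± 30.9 (SD, n = 2 per group). The groups did not overlap, and the gap between them was wider than the difference between the 2 DMSO libraries. The log2 fold change was -0.57 with an SE of 0.079 and an adjusted p of 0.00767 by edgeR, which puts Parp14 at 67.2% of its DMSO level. Parp14 was called in all 15 alternative settings, with log2 fold changes from -0.679 to -0.458.

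PARP9 has macrodomains and pairs with DTX3L, a RING-domain ubiquitin ligase of the deltex family, and the pair acts in interferon signalling and at damaged DNA. Dtx3l (ENSMUSG00000049502, chr16:35926511-35939151) was at 47.7 and 48.3 CPM with DI and at 70.4 and 76.2 CPM with DMSO. It had the smallest p of the 9 genes, with a log2 fold change of -0.61 ± 0.067 (SE) and an adjusted p of 0.00381 by edgeR, at 65.6% of DMSO. Its call held in all 15 alternatives. Parp9 (ENSMUSG00000022906, chr16:35938470-35972605) was at 39.1 and 44.2 CPM with DI and at 56.1 and 73.2 CPM with DMSO, so its 2 DMSO libraries were far apart for this set of genes. Its log2 fold change was nominally the largest in size, -0.63 ± 0.14 (SE), with an adjusted p of 0.0322 by edgeR, at 64.5% of DMSO. The call was lost without DMSO replicate 2 (-0.427, adjusted p 0.0624 by edgeR) and without DI replicate 1 (-0.545, adjusted p 0.0657), in a range of adjusted p from 0.00119 to 0.0657 over the 15 alternatives.

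The starts of Parp9 and Dtx3l lie 681 bases apart on opposite strands, and the 5′ ends of their transcripts overlap. They share 458 exonic bases, which are 9.4% of the exons of Parp9 and 8% of those of Dtx3l. Nothing in the sources used here says that reads were counted by strand, so reads from the shared bases cannot be assigned to one of the genes. Relative to Parp14, neither gene differed between the groups by more than its libraries did. The log2 CPM of Dtx3l minus that of Parp14 was -2.07 and -1.95 with DI and -1.92 and -2.02 with DMSO. For Parp9 minus Parp14 the values were -2.35 and -2.08 with DI and -2.24 and -2.08 with DMSO.

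Parp14, Parp9 and Dtx3l lie in one cluster on chromosome 16, with the starts of Parp9 and Dtx3l 66.9 kb and 67.6 kb from that of Parp14. Within 500 kb of the Parp14 start 10 genes were tested. All 3 members were called lower, and the 7 other genes had log2 fold changes from -0.11 for Ccdc58 to 0.26 for Dirc2. Of these 7, 0 were called by edgeR, beside 7.70% of all tested genes called lower and 7.14% called higher. At those shares few calls would fall among 7 genes. There were also 0 at an unadjusted p under 0.05 and 0 called by DESeq2. Beside Parp14 lay Hspbap1, which encodes a protein that binds a heat shock protein, at 0.18 (adjusted p 0.556 by edgeR). Beside Parp9 lay Kpna1, which encodes an importin of nuclear transport, at 0.05 with a wide SE of 0.56.

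**Figure D2:**
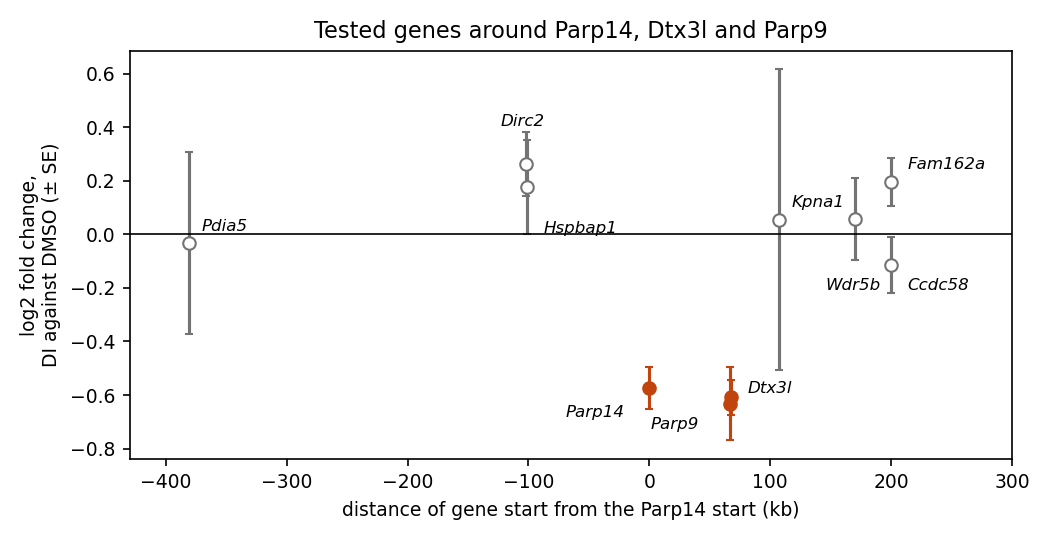
Log2 fold change (DI against DMSO, with SE) of the 10 tested genes against the distance of their start from that of Parp14 in kb, with filled points for an adjusted p under 0.05. Parp14, Parp9 and Dtx3l lie between -0.63 and -0.57, and the other 7 genes between -0.11 and 0.26, several of them with wide errors.

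PARP12 is a zinc-finger mono-ADP-ribosyltransferase found at the Golgi and in stress granules, and it restricts several viruses. Parp12 (ENSMUSG00000038507, chr6:39086410-39118349) was at 69.4 and 65.8 CPM with DI and at 91.8 and 100.6 CPM with DMSO. The groups were separated by more than either pair of libraries, and the log2 fold change was -0.51 ± 0.068 (SE) with an adjusted p of 0.00673 by edgeR, at 70.2% of DMSO. The call held in all 15 alternatives.

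PARP10 is a mono-ADP-ribosyltransferase that binds ubiquitin and dampens NF-κB signalling. Parp10 (ENSMUSG00000063268, chr15:76231174-76243441) was at 24.2 and 23.2 CPM with DI and at 30.4 and 34.6 CPM with DMSO. Its log2 fold change was -0.45 ± 0.090 (SE), with an adjusted p of 0.0247 by edgeR, at 73.0% of DMSO. The call was lost without DI replicate 2 (adjusted p 0.0796 by edgeR) and without DMSO replicate 2 (-0.359, adjusted p 0.0926), with adjusted p from 0.00766 to 0.0926 over the alternatives. Plec, its neighbour on the same strand, shares 4.8% of the exonic bases of Parp10 and was itself called lower, with a log2 fold change of -0.27.

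PARP8 is a little-studied mono-ADP-ribosyltransferase. Parp8 (ENSMUSG00000021725, chr13:116854824-117025516) was at 30.2 and 28.2 CPM with DI and at 38.3 and 36.1 CPM with DMSO. Its change was the smallest of the 6 called genes, with a log2 fold change of -0.35 ± 0.073 (SE) and an adjusted p of 0.0289 by edgeR, at 78.4% of DMSO. It was also the call that most of the 15 alternatives removed, 4 in all. The call was lost by DESeq2 (adjusted p 0.0574) and, by edgeR, without DI replicate 2 (0.134), DMSO replicate 1 (0.132) or DMSO replicate 2 (0.0649), in a range from 0.0102 to 0.134.

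PARP11 is a mono-ADP-ribosyltransferase that has been tied to the turnover of the type I interferon receptor. Parp11 (ENSMUSG00000037997, chr6:127446840-127494261) was at 20.5 and 21.2 CPM with DI and at 22.0 and 22.6 CPM with DMSO. The libraries of each group were close together and the groups did not overlap, but the difference was small. The log2 fold change was -0.10 ± 0.082 (SE), with a 95% interval from -0.299 to 0.106 and an adjusted p of 0.493 by edgeR. No alternative called it, and its values ran from -0.2 to -0.0722. The interval leaves out the estimates of the other 6 interferon-linked genes, of which Parp8 at -0.35 is the nearest. It overlaps the 95% intervals of Parp8 (-0.53 to -0.17), Parp10 (-0.676 to -0.232) and, at its edge, Parp9 (-0.968 to -0.296). It does not overlap those of Parp12, Parp14 and Dtx3l. The difference between genes was not tested.

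PARP1 makes most of the poly(ADP-ribose) that follows DNA damage, and PARP2 provides much of the rest. Parp1 (ENSMUSG00000026496, chr1:180568924-180601254) was at 148.5 and 143.8 CPM with DI and at 177.3 and 169.5 CPM with DMSO, in CPM second only to Parp14. It was called lower, with a log2 fold change of -0.25 ± 0.046 (SE) and an adjusted p of 0.0197 by edgeR. The call was lost without DI replicate 2 (0.0759), without DMSO replicate 1 (0.0850) and by edgeR's exact test (0.0643), with adjusted p from 0.00503 to 0.0850 over the alternatives. Parp2 (ENSMUSG00000036023, chr14:50807946-50821300) was at 29.9 and 30.2 CPM with DI and at 32.9 and 34.1 CPM with DMSO. Its log2 fold change was -0.16 ± 0.067 (SE), with a 95% interval from -0.322 to 0.00516 and an adjusted p of 0.178 by edgeR. It was called only under scaling by library size (0.0442) and by limma on the FPKM values (0.0217 with either pseudocount). In both genes of the pair the DI libraries lay below the DMSO libraries, and the gap was small beside those of Parp14 or Dtx3l.

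The interferon-linked genes were then set against the DNA-repair pair within each library, where scaling between libraries cancels. The mean log2 CPM of the 7 interferon-linked genes minus that of Parp1 and Parp2 was -0.558 and -0.555 in the DI libraries and -0.375 and -0.226 in the DMSO libraries. Both DI values were lower, with a mean difference of -0.256, and the 2 DMSO libraries differed from each other by more than the 2 DI libraries did. With 2 libraries against 2, an exact permutation test cannot give a p below 0.333, so none is given. Without DMSO replicate 2, the difference in mean log2 fold change between the sets was -0.181, against -0.258 with all libraries. Against Parp1 alone, the ratio of Parp14 was 0.429 and 0.378 on the log2 scale with DI and 0.585 and 0.869 with DMSO. The ratio was lower in both DI libraries for 6 of the 7 genes, with a DI minus DMSO difference of -0.377 for Parp9, -0.362 for Dtx3l, -0.323 for Parp14, -0.263 for Parp12, -0.206 for Parp10 and -0.104 for Parp8. It was higher for Parp11, by 0.149. Parp11 itself did not rise with DI, with a log2 fold change of -0.10, and the reference gene Parp1 was called lower at -0.25. For Parp2 against Parp1 the log2 ratio was -2.31 and -2.25 with DI and -2.43 and -2.31 with DMSO.

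**Figure D3:**
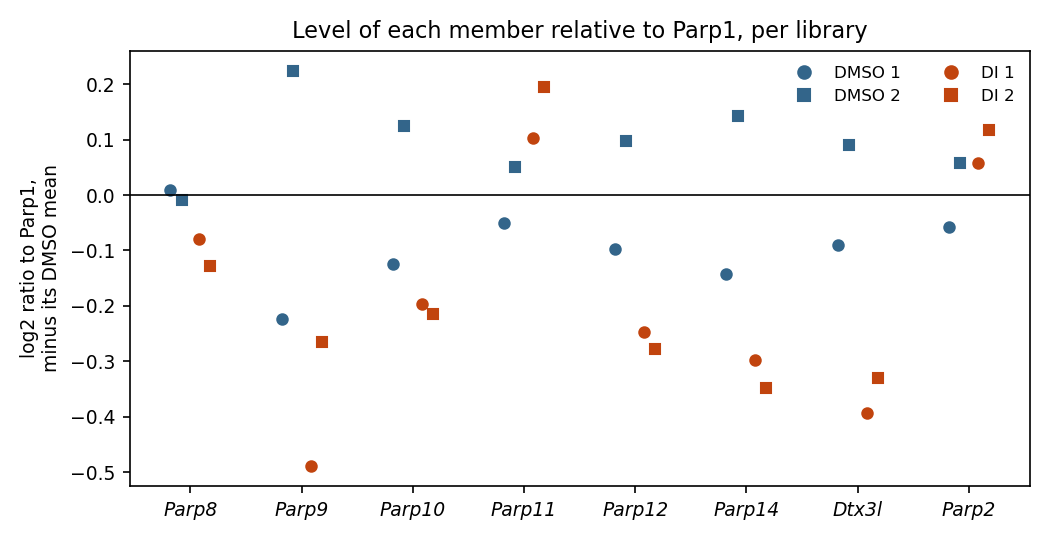
Log2 ratio of each gene to Parp1 within each library, shown as the difference from the mean of the 2 DMSO libraries, with circles for replicate 1 and squares for replicate 2 of each group. The DI points lie below the DMSO points for Parp8, Parp9, Parp10, Parp12, Parp14 and Dtx3l and above them for Parp11, and the DMSO libraries are far apart for Parp9 (-1.66 and -1.21 before centring).

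The 8 other tested genes of the family gave a median log2 fold change of -0.00631, in a range from -0.26 to 0.11. None was called by edgeR, beside 7.70% of all tested genes called lower and 7.14% called higher. At those shares few calls would fall among 8 genes. There was 1 gene at an unadjusted p under 0.05 and 1 called by DESeq2, in both cases Zc3hav1. This gene encodes ZAP (PARP13), a catalytically inactive protein that binds viral RNA and is itself induced by interferon. It was at 207.8 and 207.3 CPM with DI and at 264.4 and 232.2 CPM with DMSO, so the groups did not overlap but the DMSO libraries were apart. Its log2 fold change was -0.26 ± 0.066 (SE) with an adjusted p of 0.0527 by edgeR, just over the threshold, and it was called in 8 of 15 alternatives, with adjusted p from 0.014 to 0.119.

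Among the rest, Parp3, a partner of PARP1 in the repair of double-strand breaks, was at 32.8 and 34.5 CPM with DI and 36.8 and 38.2 CPM with DMSO, a log2 fold change of -0.15 (adjusted p 0.195 by edgeR). Tnks, one of the tankyrases that modify axin and telomere proteins, was at 0.11 (adjusted p 0.236), and its relative Tnks2 at -0.02. Tiparp, the mono-ADP-ribosyltransferase induced by the aryl hydrocarbon receptor, was at 85.2 and 84.4 CPM with DI and at 84.1 and 85.0 CPM with DMSO. Parp4, the vault PARP, was at -0.03, Parp6 at 0.05 and Parp16, which sits in the endoplasmic reticulum, at 0.02, and the signs for Parp6, Parp16 and Tiparp turned negative under scaling by library size. The difference between these genes and the interferon-linked set was not tested, since genes are not replicates of a condition.

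**Figure D4:**
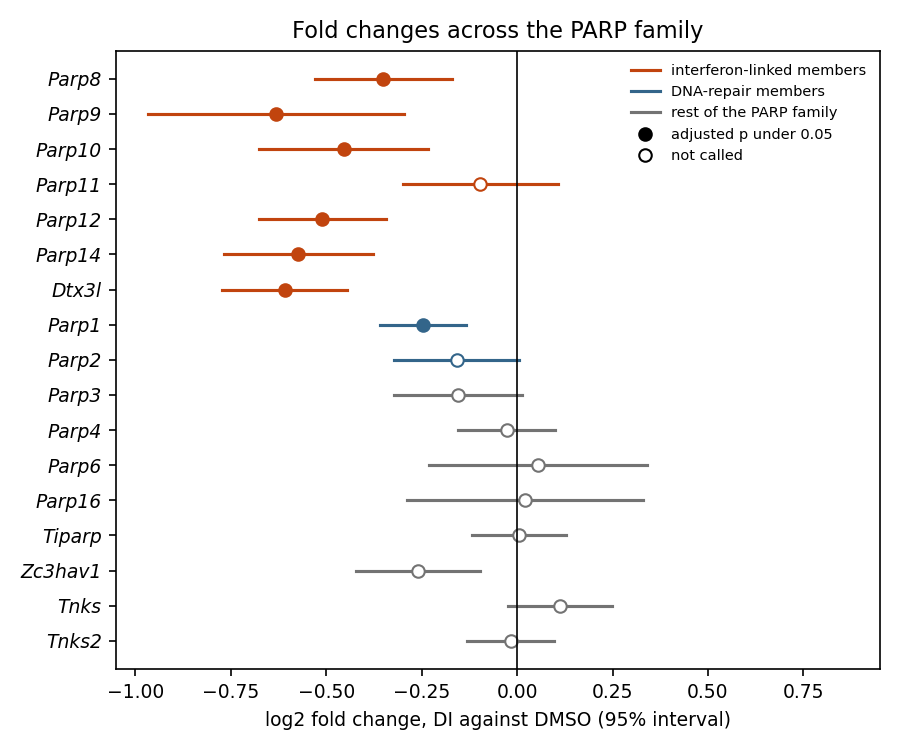
Log2 fold change (DI against DMSO, with its 95% interval) of the 17 tested genes of the PARP family and Dtx3l, coloured by set, with filled points for an adjusted p under 0.05. Filled points are found at -0.35 to -0.63 in 6 interferon-linked genes and at -0.25 in Parp1, while the 8 other family genes lie between -0.26 and 0.11.

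Levels can be compared between genes only per length. In the authors' FPKM, the mean DMSO level was 26.2 for Parp14, 24.4 for Parp1, 23.5 for Parp12, 19.4 for Parp2, 12.5 for Parp8, 10.9 for Parp9, 10.5 for Dtx3l, 4.64 for Parp10 and 1.80 for Parp11. The first 3 differed by no more than the SD of 2.80 of Parp14, and Parp8, Parp9 and Dtx3l differed by no more than the SD of 2.02 of Parp9. With DI the order was headed by Parp1 at 19.1 FPKM, followed by Parp14 at 16.4, Parp2 at 16.2 and Parp12 at 15.4. The lengths implied by these FPKM depart from annotated exons in both directions. They were shorter for Parp8, with 3088 bases against 8882 in GENCODE M21, and for Parp2, with 1788 against 3628. For the other genes they were longer, as for Parp11 (12853 against 7026), Parp10 (7264 against 4275) and Parp14 (11399 against 9306). Per kb of GENCODE exons, Parp8 moved from rank 5 to rank 8 and Parp2 from rank 4 to rank 6 in DMSO. Parp1, Parp14 and Parp12 remained the first 3 in DMSO, but with Parp1 ahead, at 32.8 CPM per kb against 30.9 for Parp14.

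The genes of interferon signalling were examined next. Of 17 tested genes from receptors to STAT and IRF factors, 5 were called lower and 1 higher, beside 7.70% and 7.14% of all tested genes, and the list median was -0.01. Irf7, which amplifies interferon production, was at 12.6 and 14.8 CPM with DI and at 32.5 and 29.9 CPM with DMSO, a log2 fold change of -1.19 ± 0.11 (SE, adjusted p 0.00248 by edgeR), and its groups did not overlap. Further called genes, named after their values were seen, were Stat2 (-0.60), Irf9 (-0.46) and the deISGylase Usp18 (-1.31), all lower, and Irf8 (0.45), a factor of the monocyte lineage, higher. Stat2 and Irf9 lay at 65.7% and 72.6% of DMSO, within the span of the 6 called PARP genes. The 4 receptor genes of the list, Ifnar1, Ifnar2, Ifngr1 and Ifngr2, also named after their values were seen, had log2 fold changes from -0.08 to 0.03, and none was called by edgeR, by DESeq2 or at an unadjusted p under 0.05. Ifnb1, which encodes interferon-β, had 0 counts in all 4 libraries, which allows up to 0.160 to 0.180 CPM per library at a floor of 3 counts.

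Among 24 sentinel interferon-stimulated genes, 23 were called lower, beside 7.70% of all tested genes, and the median log2 fold change was -1.33, in a range from -2.48 to -0.32. This list was drawn up with earlier results on these data known and is not independent evidence of its direction. The median of the interferon-linked PARP genes, -0.51, lies toward the small end of that range. Oasl2, an antiviral oligoadenylate synthetase-like gene, stood at 38.5% of DMSO (adjusted p 5.15e-04 by edgeR), and Cxcl10, a chemokine for T cells, at 23.7% (adjusted p 9.20e-04).

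The genes whose pattern over the 4 libraries was most like that of Parp14 were sought among 9266 genes that averaged over 3 on the log2 CPM scale, by the Euclidean distance between log2 CPM values centred on each gene's mean. The nearest was Eif2ak2, which encodes PKR, the interferon-induced kinase that senses double-stranded RNA, at a distance of 0.0157. Among the next were Nr1h3 (the liver X receptor α) at 0.0370, Slfn5 (a Schlafen family gene) at 0.0550 and Cenpn (a centromere protein) at 0.0628. These 4 were called lower, with log2 fold changes from -0.58 to -0.54 that follow from how they were chosen. A profile over 4 libraries is a short one, and the match is a description. Nr1h3 lost its call without DI replicate 2 (log2 fold change -0.518) and without DMSO replicate 2 (-0.486). Cenpn lost its call without DI replicate 1 (-0.549), DI replicate 2 (-0.522) or DMSO replicate 2 (-0.426). With replicate number as a block Cenpn was not called either (adjusted p 0.0573 by edgeR).

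Genes that remove or read ADP-ribose were represented by 14 tested genes. Of these, 1 was called lower, a share near the 7.70% of all tested genes, and 0 were called higher. In the higher direction there were 0 at an unadjusted p under 0.05 and 0 by DESeq2, and the median log2 fold change was 0.02. The called gene was Chd1l, a chromatin remodeller that PARP1 activates, at 16.3 and 15.2 CPM with DI and 20.6 and 20.9 CPM with DMSO (-0.40 ± 0.092 (SE), adjusted p 0.0401 by edgeR). It was not called by DESeq2, with replicate number as a block, or when DI replicate 2, DMSO replicate 1 or DMSO replicate 2 was left out. The next by p was Nudt16, a hydrolase that trims ADP-ribose from proteins, at 0.29 (adjusted p 0.208).

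The supply and use of NAD, the substrate of all PARP enzymes, were represented by 12 tested genes. Of these genes for making, converting or consuming NAD, 2 were called higher and 1 lower, beside 7.14% and 7.70% of all tested genes. The list median was 0.06. Nampt, the rate-limiting enzyme of NAD salvage, was at 329.7 and 337.3 CPM with DI and at 222.7 and 223 CPM with DMSO, a log2 fold change of 0.58 ± 0.038 (SE, adjusted p 8.33e-04 by edgeR). Its groups lay far apart and both pairs of libraries were close. Bst1, an ectoenzyme that consumes NAD, was at 57.6 and 56.2 CPM with DI and at 27.5 and 29.9 CPM with DMSO, a log2 fold change of 0.99 ± 0.071 (adjusted p 0.00116). Nadk, the kinase that turns NAD into NADP, was called lower at -0.37 (adjusted p 0.00298) and is named after its value was seen. NAD itself was not measured.

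Of the other deltex ligases, 3 were tested, 1 was called lower and 0 higher, beside 7.70% and 7.14% of all tested genes. A list of 3 is too short to set against those shares. The called gene was Dtx4, at 141.5 and 141.7 CPM with DI and 176.9 and 177.7 CPM with DMSO (-0.32 ± 0.040 (SE), adjusted p 0.00534 by edgeR). Dtx3 was at 0.15 (adjusted p 0.313) and Dtx2 at -0.12 (0.729). A list of 16 tested break-repair genes, most of them partners of PARP1 and PARP2 at single-strand breaks, also holds Xrcc5 and Xrcc6, the Ku subunits of double-strand end joining. Of the 16, 2 were called lower and 0 higher, beside 7.70% and 7.14% of all tested genes. At an unadjusted p under 0.05 there were 6 lower and 3 higher, and DESeq2 called 2 lower and 0 higher. The median of this list was -0.21, close to the mean of -0.202 of Parp1 and Parp2 and below the 0.00117 of all tested genes. Lig1, the ligase that joins replication fragments, stood at 72.3% of DMSO (adjusted p 0.0112 by edgeR) and Xrcc6, whose product Ku70 binds the ends of double-strand breaks, at 72.5% (adjusted p 0.0268), so 1 of the 2 called genes is not a single-strand break factor. The count of 2 became 1 when DI replicate 1, DI replicate 2 or DMSO replicate 1 was left out, and 4 with scaling by library size only.

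**Figure D5:**
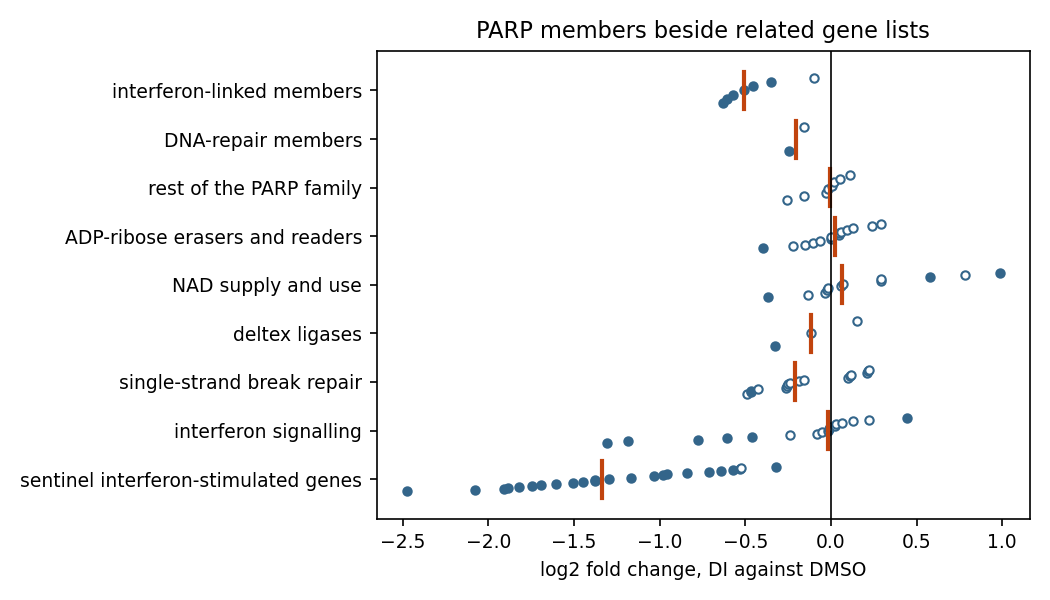
Log2 fold change (DI against DMSO) of each tested gene in the interferon-linked set, the DNA-repair pair and 7 related lists, with filled points for an adjusted p under 0.05 and a vertical bar at each list's median. The medians lie at -1.33 for sentinel interferon-stimulated genes, at -0.51 for the interferon-linked PARP genes, at -0.21 for single-strand break repair and near 0 for the rest of the PARP family.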

How the data were processed

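RNA from 2 DI and 2 DMSO samples was sequenced as paired-end mRNA libraries. The authors deposited raw counts per gene and library, without normalization, and FPKM values derived from them. The labels give the build as GRCm38 (mm10), and 100% of the 34267 gene IDs shared with GENCODE M21 lay on the same chromosome. The aligner and the counting program are not given in the sources used here. A second deposited table, which repeats the values with pathway names, was not used.

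Counts were tested in R 4.3.3 with edgeR 4.0.16 (TMM factors, filterByExpr, quasi-likelihood fit with condition as the only term, Benjamini-Hochberg adjustment over 12590 genes), after the steps were tested on simulated data. At the depth of these libraries 3 counts equal 0.160 to 0.180 CPM. Floors cover counting error only. Replicates of a group differed by more than sampling noise (chi-square per degree of freedom 7.74 for DMSO and 7.57 for DI). Log2 CPM for profiles and for the deviations of replicates used a prior count of 2, and log2 CPM for ratios used none. Alternatives were DESeq2 1.42.0, other scalings, other filters, the exact test of edgeR, limma 3.58.1 with voom weights or on log2(FPKM + 1) and log2(FPKM + 0.1), a replicate block, and each library left out in turn. No near-identical copies of the 9 genes were found by BLAST+ 2.17.0 among GENCODE transcripts (at least 95% identity over at least 20% of a transcript). Sequences are from RefSeq.

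The genes and all gene lists were chosen with earlier results of these data known. From the other lists, the 2 genes with the smallest p, every other PARP gene, the 5 profiles nearest to Parp14 and the 2 tested neighbours on each side of each gene were named, except for items that are not reported here, and other genes are marked as chosen after their values were seen.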

Additional observations from a re-analysis of the deposited data

How the results depend on the processing

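Every one of the 9 genes kept a negative log2 fold change in all 15 alternatives, and Parp12, Parp14 and Dtx3l kept their calls in all of them. When each library was left out in turn, the number of the 9 genes called (7 with all libraries) ranged from 4 to 6, that of interferon-linked genes (6) from 3 to 5, and that of the DNA-repair pair (1) from 0 to 1. The median of the interferon-linked genes then ranged from -0.575 to -0.427, the mean of the pair from -0.209 to -0.192, and the difference between the set means from -0.330 to -0.181, with the value nearest 0 without DMSO replicate 2. Over all genes, 529 to 712 were then lower and 558 to 682 higher. The DNA-repair pair had 2 calls with scaling by library size only and with either FPKM pseudocount, and 0 by edgeR's exact test. Scaling by library size only gave a median of -0.613 for the interferon-linked genes and a mean of -0.306 for the pair, with 1932 genes lower and 548 higher. Limma on log2(FPKM + 1) gave -0.581 and -0.291, with 1674 lower and 536 higher, and on log2(FPKM + 0.1) -0.609 and -0.304, with 1667 and 532. In these 3 settings the median of all tested genes stood at -0.102, -0.0685 and -0.0962. Among the genes followed singly through the alternatives, signs turned in 4 family genes, none of which was called in any of them. With library size only and the 2 FPKM settings, Parp6 was at -0.0485, -0.0383 and -0.0447, Parp16 at -0.083, -0.061 and -0.079, and Tiparp at -0.099, -0.0931 and -0.0983. Tiparp was at -0.00376 with upper quartile factors. With one library left out, Parp6 ranged from -0.0633 to 0.180, Parp16 from -0.00954 to 0.0531, Tiparp from -0.00382 to 0.014, and Tnks2 from -0.0472 to 0.0141. Replicate numbers are shared between the groups, and the deviations of same-numbered libraries had a correlation of -0.0302. With 2 libraries per group this is 1 value for both replicate numbers. It cannot show whether same-numbered libraries were paired. With the replicate block, 7 of the 9 genes and 6 of the interferon-linked genes were still called, and 704 genes were lower and 685 higher. The block removed the call of Chd1l and that of Cenpn (adjusted p 0.0573 by edgeR) and left 1 of the 2 calls among break-repair genes. Parp2 and Parp11 did not pass the adjusted threshold by edgeR with all libraries. Their DI libraries lay below their DMSO libraries, as they did in 29.6% of tested genes.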

Other observations

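The chromosomal neighbours of the 9 genes were described from the same fit, taking the 2 nearest tested genes on each side of each. Of 28 distinct neighbours outside the set, 1 was called lower and 7 higher with DI, beside 7.70% and 7.14% of all tested genes, the median log2 fold change was 0.143, and 20 of 28 values were positive. The one lower neighbour was Plec, which encodes the cytoskeletal linker plectin and overlaps Parp10, at -0.27 ± 0.042 (SE, adjusted p 0.0110 by edgeR). On the other side of Parp10, Grina, which encodes a membrane protein of the TMBIM family, was higher at 0.40 (adjusted p 0.00329 by edgeR). Parp12 lay between Tbxas1, the thromboxane synthase gene, at 0.33 (adjusted p 0.00724 by edgeR), and Kdm7a, a histone demethylase gene, at 0.50 (adjusted p 0.00360), both higher. The gene nearest to Parp8 on its far side, Emb, which encodes the glycoprotein embigin, was higher at 0.52 (adjusted p 9.16e-04). Around Parp1, Itpkb, which encodes an inositol trisphosphate kinase, was at 0.35 (adjusted p 0.0172) and Acbd3, a Golgi protein gene, at 0.26 (adjusted p 0.0142). Naa30, an N-terminal acetyltransferase gene that neighbours Parp2 at a distance of over 1 Mb, was at 0.84 (adjusted p 0.00196).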
